A study of Mus musculus with 4 samples.

Results

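The mitochondrial ribosome (mitoribosome) is the machine that translates the few protein-coding genes left on mitochondrial DNA, all of which encode subunits of the oxidative phosphorylation complexes. It has a large and a small subunit, and its proteins are encoded in the nucleus, made in the cytosol and imported. Some descend from bacterial ribosomal proteins and others are found in mitochondria alone. The genes described here were those whose symbol begins with Mrpl or Mrps followed by a digit, the names given to proteins of the large and small subunit. This rule, which uses no measured value, found 76 of the 23420 gene symbols in the count files. They lay on 17 chromosomes, and all 76 passed the filter on low counts, with more than 100 counts in every library.

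RNA was sequenced from motor neurons (MNs) made from E14 mouse embryonic stem cells, either wild type (WT) or Patz1 -/- (Patz1 KO), with 2 libraries per genotype. PATZ1 is a zinc finger protein that the study examined as a candidate insulation factor alongside CTCF and MAZ, and the comparison asked how its loss changes gene expression in MNs. Cells of both genotypes went through embryoid bodies for 2 days and were then patterned to a cervical MN fate with 1 µM retinoic acid and 0.5 µM smoothened agonist. Libraries were stranded and depleted of ribosomal RNA. The study made several Patz1 KO clones with CRISPR/Cas9, and the labels do not say which was used here or whether the replicates share a clone, so the p-values measure only the spread between these libraries. The sample titles name embryonic stem cells, whereas their source and cell type name MNs.

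Levels of MN markers fitted the MN label: 8 of 8 were counted in every library. Of 3 pluripotency markers, only Pou5f1, with 3 to 7 counts per library, was too low to test. Patz1 transcript was at 91.5 and 94.3 CPM in WT (read counts scaled to a common depth by the TMM method) and at 47.6 and 42.6 CPM in the knock-out, which is -1.04 ± 0.10 (SE) on the log2 scale. The 3 pluripotency markers summed to 5.51 and 6.79 CPM in WT and to 4.41 and 5.18 in Patz1 KO, so the other 2 were present at low levels. Between the genotypes those 2 moved in opposite directions, by -0.70 and 0.46 on the log2 scale, and neither passed the test described below. The libraries held 14769104 to 23881522 counts. The 2 genotypes also differed in markers of other cells. The summed level of 6 proliferation markers was 1693 and 1796 CPM in WT and 1002 and 1006 in Patz1 KO, with 5 of 6 lower. That of 6 primitive endoderm markers was 58.9 to 63.0 against 9.86 to 11 (5 of 6 lower), that of 5 mesenchyme markers was 182 to 203 against 30.2 to 35.7 (5 of 5 lower), and that of the MN markers was 600 to 644 against 939 to 1032 (7 of 8 higher). The 4 ventral progenitor markers were mixed, with 1 lower and 1 higher, and summed to 780 and 758 CPM in WT and 562 and 541 in Patz1 KO. None of these markers was at 0 in any library. Their part in the results was not tested, and in bulk RNA fewer cells of a type cannot be told apart from less RNA per cell.

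Most mitoribosomal protein transcripts did not pass the test in Patz1 KO MNs, and those that did changed by at most 1.63-fold in either direction. In the quasi-likelihood test of edgeR, with p adjusted by Benjamini-Hochberg over 14394 genes and a threshold of 0.05, 6 members were higher, 19 were lower and 51 did not pass. That is 32.9% of the members called, where 47.4% of all genes tested were called. In each direction, 7.89% of members were higher against 24% of all genes, and 25% were lower against 23.4%. Among the 8385 genes at least as abundant as the lowest member (17.6 CPM), 51.3% were called. The groups did not overlap for 47 members (61.8%), with the Patz1 KO libraries lower in 33 and higher in 14, whereas they did not overlap for 73.9% of all genes. The counts depended on the tool and on single libraries. DESeq2's Wald test called 5 members higher and 6 lower. Without the first Patz1 KO library edgeR called 16 higher and 8 lower, without the second 6 and 29, without the first WT library 5 and 7, and without the second WT library 4 and 7.

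The changes were small. Log2 fold changes of the members ran from -0.71 to 0.65, with a median of -0.06 against 0.00 for all genes, and the median size of a change regardless of sign was 0.19 against 0.34 for all genes and 0.26 for the abundant ones. No member moved by more than 1 on the log2 scale, and 13.7% of all genes did. Among the 51 members that did not pass, 45 had a 95% confidence interval that lay wholly within 0.5 on either side of 0. The widest of the 51 intervals reached 0.30 on either side of its estimate.

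**Figure D1:**
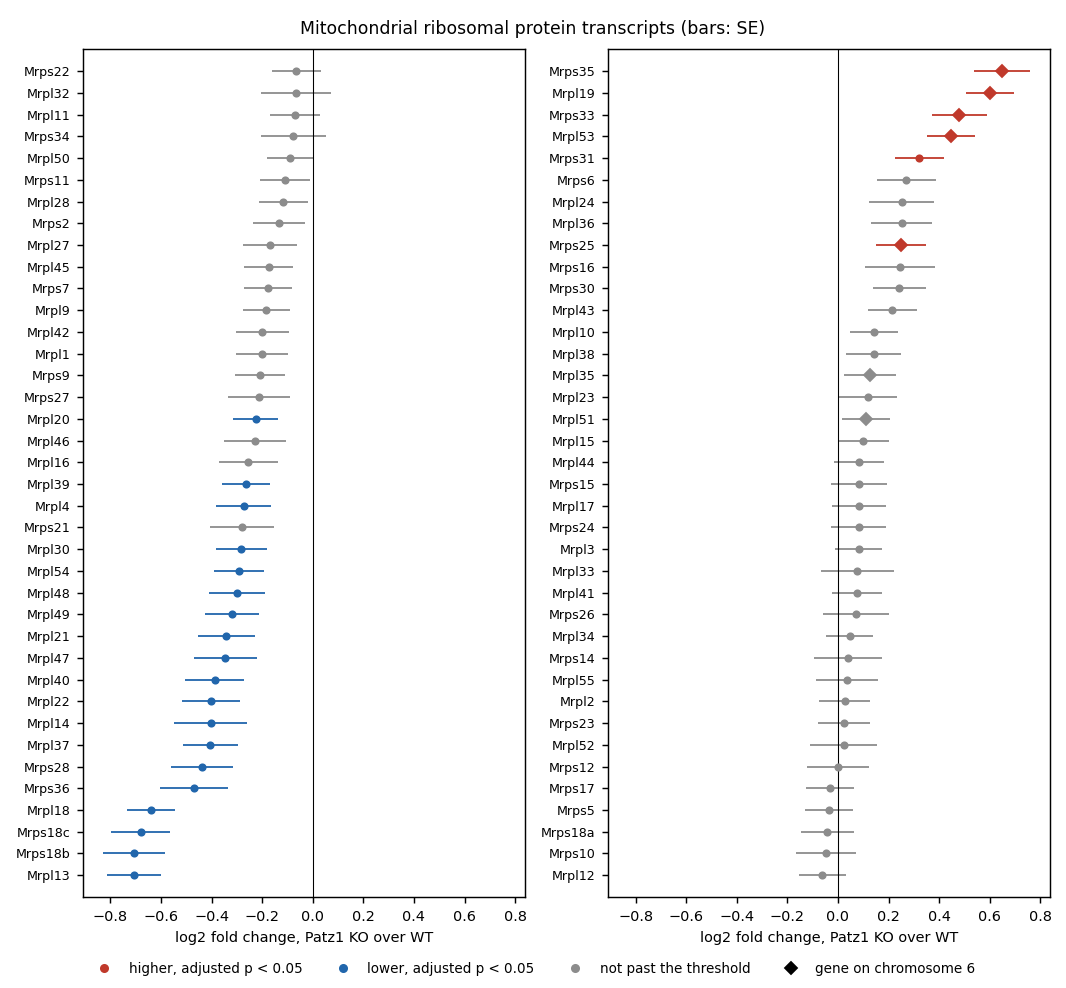
Log2 fold change (Patz1 KO over WT, n = 2 libraries each) of all 76 members, sorted and split over both panels, with bars for the SE; colour gives the edgeR call and diamonds mark genes on chromosome 6. The 19 lower members reach -0.71, and 5 of the 6 higher ones are diamonds.

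Whether the summed level of the 76 transcripts separated the genotypes depended on the scaling. On the TMM scale it was 3387 and 3315 CPM in WT and 3027 and 3396 CPM in Patz1 KO, so the second Patz1 KO library lay above both WT libraries and the first below them. Expressed as a share of all counts, mitoribosomal transcripts made up 0.342% and 0.335% in WT and 0.307% and 0.327% in Patz1 KO, so that by this measure both Patz1 KO libraries lay below both WT libraries. On the TMM scale the 49 large subunit transcripts summed to 2362 and 2291 CPM in WT and to 2079 and 2312 in Patz1 KO. The 26 small subunit transcripts summed to 985 and 980 CPM in WT and to 923 and 1048 in Patz1 KO. Both sums overlapped between the genotypes on that scale. As shares of all counts, the large subunit transcripts made up 0.238% and 0.232% in WT and 0.211% and 0.223% in Patz1 KO, without overlap, and the small subunit transcripts made up 0.0993% and 0.0991% against 0.0937% and 0.101%, with overlap.

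Both subunits held falls and rises. Of the 49 large subunit genes 15 fell and 2 rose, and of the 26 small subunit genes 3 fell and 4 rose. Calls thus made up 34.7% of the large subunit genes and 26.9% of the small subunit ones, against 47.4% of all genes tested. By origin, 9 of 30 large subunit proteins with a bacterial counterpart fell and 1 rose (median log2 fold change -0.07), and 6 of 19 that are specific to mitochondria fell and 1 rose (median -0.09). Among small subunit proteins, 2 of 16 with a bacterial counterpart fell and none rose (median -0.04), while of the 10 mitochondria-specific ones 1 fell and 4 rose (median 0.05). Of those 4, 3 lie on chromosome 6, as do both large subunit rises, Mrpl19 and Mrpl53. Mrps18a and Mrps18b, although related to a bacterial protein, were classed as mitochondria-specific, in the large and the small subunit. Mrps18b was the 1 fall in its class. In the order given above, calls made up 33.3%, 36.8%, 12.5% and 50% of the 4 classes. The differences between these classes were not tested.

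Transcripts of 4 genes fell the most, and these were the only members called under each of the 12 alternative analyses. Of those 12, 1 was chosen after the data were seen, the centring of each chromosome on its median. Mrpl19, Mrps33, Mrps35 and Mrpl53, all on chromosome 6, were called higher under the other 11. Mrpl13, the counterpart of bacterial L13, was at 92.2 and 93.4 CPM in the WT libraries and at 50.4 and 63.6 in the Patz1 KO libraries. Both Patz1 KO values lay far below both WT values, and the transcript fell by 38.7% (log2 fold change -0.71 ± 0.11, SE, n = 2 per group, edgeR adjusted p = 2.75e-05). Mrpl18, the counterpart of the bacterial protein that holds the small RNA of the large subunit, was at 81.6 and 78.4 CPM in WT and at 49.1 and 53.6 in Patz1 KO. It fell by 35.8% (-0.64 ± 0.09, edgeR adjusted p = 2.28e-05), with no overlap. The other 2 of the 4 strongest falls, Mrps18b and Mrps18c, are relatives of each other.

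Mammals carry a trio of genes for proteins related to bacterial S18: Mrps18c and Mrps18b, whose products sit at separate places in the small subunit, and Mrps18a, whose product is built into the large subunit in spite of its name. Mrps18c was at 59.8 and 58.6 CPM in WT and at 32.0 and 42.4 in Patz1 KO, a fall of 0.68 ± 0.12 on the log2 scale (edgeR adjusted p = 0.000113). Mrps18b was at 23.8 and 22.8 CPM in WT and at 14.5 and 14.0 in Patz1 KO, and its log2 fold change was -0.71 ± 0.12 (edgeR adjusted p = 0.000137). In both, the Patz1 KO libraries lay below the WT libraries with no overlap. Mrps18a was at 48.1 and 40.4 CPM in WT and at 43.9 and 42 in Patz1 KO, so that both Patz1 KO values fell between the WT values. Its log2 fold change was -0.04 with a 95% interval from -0.26 to 0.18, which does not meet the interval of Mrps18b (-0.97 to -0.45) or of Mrps18c (-0.92 to -0.44). Differences between these genes were not tested, and Mrps18b and Mrps18c were among the strongest falls of all members. Mrps18a and Mrps18b both lie on chromosome 17, and Mrps18c lies on chromosome 5.

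**Figure D2:**
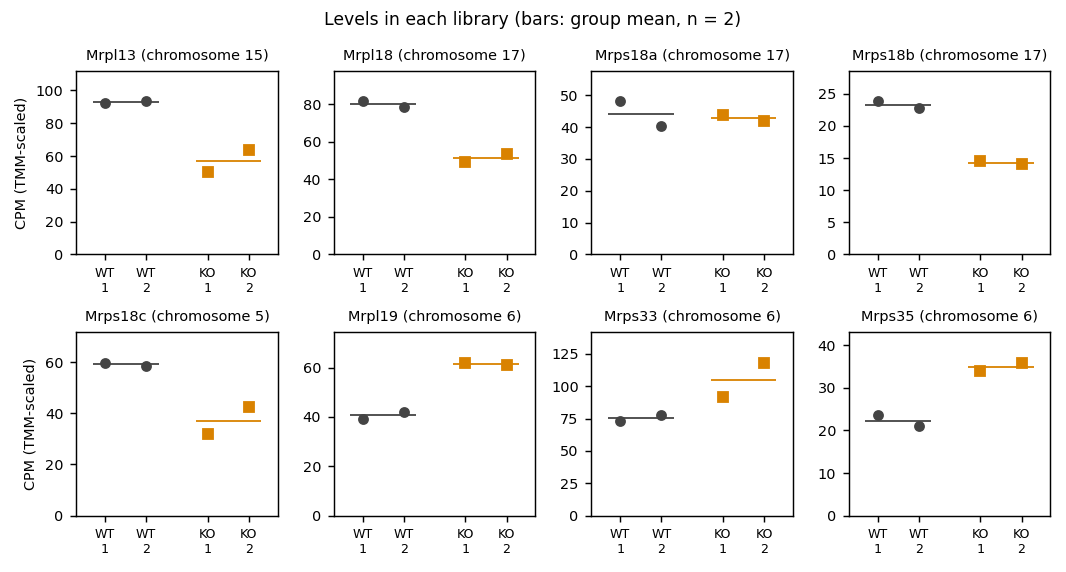
CPM (TMM-scaled, y axes start at 0) of 8 members in each library, with circles for WT, squares for Patz1 KO and bars for the group means (n = 2). The upper row and Mrps18c show the strongest falls beside Mrps18a, whose groups overlap; Mrpl19, Mrps33 and Mrps35 on chromosome 6 were higher in both Patz1 KO libraries.

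The other 15 members that fell did so by less. Mrps36, at 40.1 and 43.5 CPM in WT and 25 and 35.8 in Patz1 KO, had a log2 fold change of -0.47 ± 0.13 (edgeR adjusted p = 0.00748); although named for the small subunit, its product is known as a part of the oxoglutarate dehydrogenase complex, so it was counted in neither subunit. Mrps28, a small subunit protein, followed at -0.44 ± 0.12 (23.4 and 21.2 CPM in WT, 16.1 and 16.9 in Patz1 KO). The rest were large subunit genes: Mrpl37 (-0.41), Mrpl14 (-0.40), Mrpl22 (-0.40), Mrpl40 (-0.39), Mrpl47 (-0.35), Mrpl21 (-0.34), Mrpl49 (-0.32), Mrpl48 (-0.30), Mrpl54 (-0.29), Mrpl30 (-0.28), Mrpl4 (-0.27), Mrpl39 (-0.26) and Mrpl20 (-0.23). In each of the 19 lower members both Patz1 KO libraries lay below both WT libraries. The 15 were called under fewer of the 12 alternatives, from 5 for Mrpl20 to 11 for Mrps36 and Mrpl37.

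Among the genes listed for sites of the large subunit, only the stalk held calls in both directions. Calls at the exit tunnel and the central protuberance were all falls. The stalk, where elongation factors dock, is represented by 5 genes: Mrpl12, whose product forms the flexible stalk, was at 52.4 and 51.5 CPM in WT and at 49.4 and 50.2 in Patz1 KO (log2 fold change -0.06, 95% interval -0.26 to 0.14). Its partners Mrpl10 (0.14) and Mrpl11 (-0.07) did not pass either, Mrpl54 fell (-0.29) and Mrpl53, on chromosome 6, rose (0.45). Of 8 genes for proteins around the exit tunnel, through which the new peptide leaves, Mrpl22, Mrpl39 and Mrpl47 fell and the other 5 did not pass (median of the 8, -0.05). Mrpl45, whose product tethers the ribosome to the inner membrane, was among those 5 at -0.17. Of 4 genes listed for the central protuberance, Mrpl40 and Mrpl48 fell, and Mrpl38 (0.14) and Mrpl46 (-0.23) did not pass. The site lists hold selected genes, and Mrpl18, which fell (-0.64), is on none of them.

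Of the 6 higher transcripts, 5 came from chromosome 6. Of the 7 members encoded there, 5 rose and none fell, whereas of the 69 members elsewhere 1 rose and 19 fell. Mrps35, for a mitochondria-specific protein of the small subunit, was at 23.6 and 20.9 CPM in WT and at 33.9 and 35.9 in Patz1 KO (log2 fold change 0.65 ± 0.11, edgeR adjusted p = 0.000116). Mrpl19, for a large subunit protein with a bacterial counterpart, was at 39.2 and 42 CPM in WT and at 62.0 and 61.2 in Patz1 KO (0.60 ± 0.10, edgeR adjusted p = 5.41e-05). The groups did not overlap in either gene.

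The next 3 rises on chromosome 6 were Mrps33, Mrpl53 and Mrps25. Mrps33 was at 72.9 and 77.5 CPM in WT and at 92.0 and 118 in Patz1 KO (0.48 ± 0.11). Mrpl53 was at 47.3 and 43.6 CPM in WT and at 61.5 and 62.4 in Patz1 KO (0.45 ± 0.10), and Mrps25 was at 39.3 and 40.6 against 45.0 and 50.1 (0.25 ± 0.10, edgeR adjusted p = 0.0477). The remaining pair, Mrpl35 (0.13) and Mrpl51 (0.11), did not pass. Mrps31 on chromosome 8 was the 1 rise elsewhere, at 40.2 and 40.7 CPM in WT and 48.7 and 52.4 in Patz1 KO (0.32 ± 0.10, edgeR adjusted p = 0.0111).

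These values sit beside a difference that spanned the whole of chromosome 6. The median log2 fold change over its 659 tested genes was 0.56, with 428 genes higher and 43 lower, and it was positive in each of 15 windows of 10 Mb along the chromosome (0.15 to 0.80). Against the WT mean, the chromosome 6 median was 0.53 in the first and 0.57 in the second Patz1 KO library, while the WT libraries differed from each other by -0.01. The other autosomes had medians from -0.14 to 0.15, the highest being chromosome 8, and the X chromosome had 0.24. The Y chromosome, with only 5 tested genes, had a median of -1.94, with 4 lower and 0 higher. DNA copy number was not measured, and an effect of Patz1 loss on these 7 genes cannot be told apart from the difference over the whole chromosome.

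Set against their own chromosome, none of the 7 genes was called higher. When each chromosome was centred on its median before the test, an analysis chosen after the shift was seen, Mrpl19 was at 0.05 and Mrps35 at 0.09, and neither was called. Mrpl53 (-0.11) and Mrps33 (-0.08) lay below 0 without passing, and Mrps25 (-0.31), Mrpl35 (-0.43) and Mrpl51 (-0.44) were called lower. Mrps31 was at 0.17 and no longer called. That analysis called 5 members higher (Mrpl24, Mrpl36, Mrpl43, Mrps6 and Mrps30), none of which were among the 6, and 16 lower, 13 of which were among the 19.

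**Figure D3:**
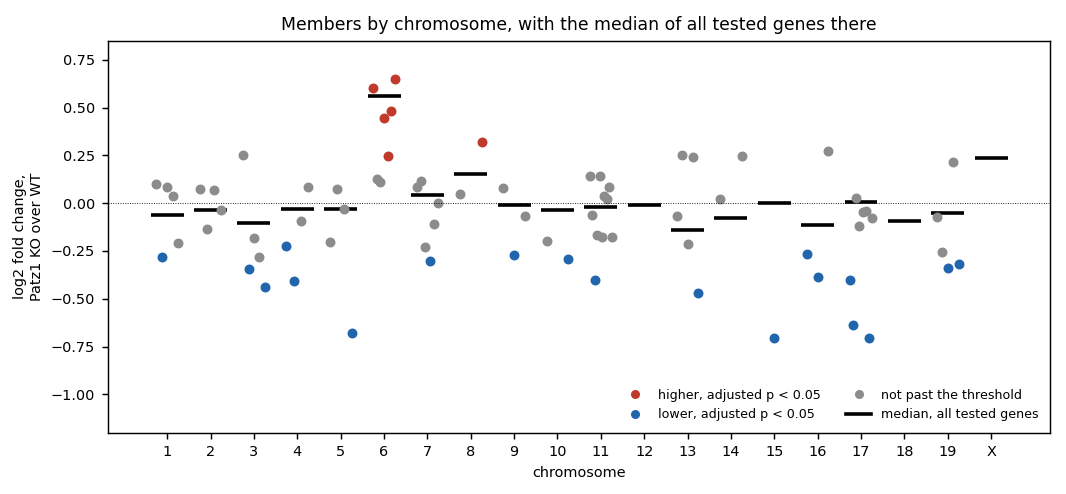
Log2 fold change (Patz1 KO over WT) of each member, by chromosome, coloured by the edgeR call, with a bar for the median of all tested genes on that chromosome. Chromosome 6 has a median of 0.56, and 5 of its 7 members were called higher; the 19 lower members lie on other chromosomes.

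The Patz1 KO libraries also differed from each other, and over all genes the difference ran with transcript length. The second was higher than the first by more than 0.3 on the log2 scale for 15 members, and the median ratio over the members was 0.13 on that scale, against -0.03 between the WT libraries. The gap was largest in Mrpl33, a protein of the large subunit, which was at 45.7 CPM in the first and 71.2 in the second Patz1 KO library, on either side of the WT values of 58.1 and 52.1. Mrpl52 behaved alike, with 45.2 and 66.6 CPM in Patz1 KO around 55.8 and 53.7 in WT. Mrps21 was at 50.3 and 72.0 CPM in Patz1 KO and at 71.7 and 76.2 in WT, so the second Patz1 KO library lay close to WT and the first well below it.

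The 15 members had a median shortest transcript of 692 bases, against 1226 in the other 61. Of the 15, 8 had a transcript of up to 800 bases and 4 had none shorter than 2500. Over all genes as abundant as the members, the median log2 ratio of the second to the first Patz1 KO library was 0.42 for transcripts of up to 600 bases, 0.20 from there to 800 and 0.12 to 1000, and it fell to -0.08 above 4000 bases. The members followed this in part: their median was 0.52 for up to 600 bases (6 members), 0.15 to 800 (15), 0.09 to 1000 (9) and 0.06 to 1500 (20), but 0.09 to 2500 (13), 0.25 to 4000 (7) and 0.12 above that (6). In the WT pair the medians over all genes ran from -0.08 to 0.03. The 79 cytosolic ribosomal proteins at that level, whose transcripts are short too, had a median ratio of 0.43 and were above 0.3 in 57 cases. Of the 15 members, 6 were among those called lower and 1 among those called higher. The 16 members called higher without the first Patz1 KO library included Mrpl33 (0.37) and Mrpl52 (0.28), and the 29 called lower without the second included the same pair, at -0.27 each. The part of transcript length in the calls was not tested.

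**Figure D4:**
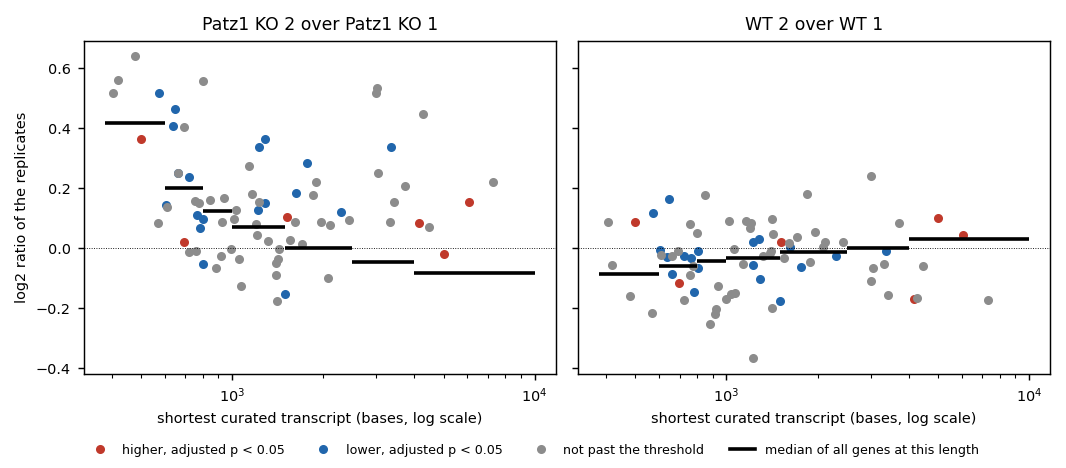
Log2 ratio between the replicates of each genotype (left, Patz1 KO; right, WT) for each member against its shortest curated transcript in bases (log axis), coloured by call, with black bars for the median of all genes at least as abundant as the lowest member. In Patz1 KO the bars fall from 0.42 to -0.08 with length, and several members of over 2500 bases lie well above them; in WT the bars stay between -0.08 and 0.03.

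Levels differed much more between members than between genotypes. Per kilobase of the shortest curated transcript, WT levels spanned 34.1-fold, with a median of 29.0 CPM per kb and an interquartile range of 21.7 to 47.2. The highest were Mrps21, a small subunit protein with a bacterial counterpart, at 183 CPM per kb in WT and 151 in Patz1 KO, Mrps33 at 150 and 210, and Mrpl52 at 131 and 134. On the shortest lengths the first pair changed places between the genotypes. Mrps21 was at 177 and 188 CPM per kb in the WT libraries and at 124 and 178 in Patz1 KO. Mrps33 was at 146 and 155 in WT and at 184 and 237 in Patz1 KO. This exchange depended on the transcript taken. The longer annotated lengths were 488 bases for Mrps21 and 1107 for Mrps33. With these, Mrps21 was at 151.5 CPM per kb in WT and 125.3 in Patz1 KO. Mrps33 was then at 67.9 and 94.99, below Mrps21 in both genotypes. The lowest were Mrps35, at 5.35 CPM per kb in WT and 8.39 in Patz1 KO, Mrpl17 at 5.45 and 5.78, and Mrps25 at 6.58 and 7.83. These 3 have long annotated transcripts (4162, 7300 and 6073 bases). Their shortest and longer annotated lengths were the same, so their values did not depend on that choice. Of the 76, 11 moved by more than 10 places between the genotypes, and the largest move was 22 places.

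Another 6 proteins of the mitoribosome carry other symbols, and of these only Gadd45gip1 passed, at 25.6 and 21.1 CPM in WT and 34.6 and 34.3 in Patz1 KO (0.56 ± 0.12, edgeR adjusted p = 0.000619). That is 16.7% of this list called, against 47.4% of all genes tested. Ptcd3, a small subunit protein, lies on chromosome 6 but had a log2 fold change of -0.02, with 115 and 123 CPM in WT and 113 and 122 in Patz1 KO.

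Of 27 genes for mitoribosome assembly and ribosomal RNA modification, 8 rose and 1 fell (median 0.09). Calls made up 33.3% of that list, against 47.4% of all genes, and 17 of the 27 lay above 0. Mtg1, a GTPase of large subunit assembly, was at 7.72 and 7.04 CPM in WT and at 13.2 and 13.6 in Patz1 KO (0.86 ± 0.16). Rbfa, which matures the small subunit, was at 14.2 and 11.1 against 23.4 and 21.8 (0.84 ± 0.14), and Afg3l2, a subunit of the protease that trims Mrpl32 on import, was at 33.8 and 35.0 against 51.6 and 48.0 (0.53 ± 0.10). Malsu1, which binds Mrpl14 during assembly, lies on chromosome 6 and was at 0.60 ± 0.16, while Mrpl14 fell. The 1 fall was Fastkd2, needed for the large subunit RNA, at 42.2 and 44.8 CPM in WT and 29.8 and 33.4 in Patz1 KO (-0.47 ± 0.10). For Mtg1, Rbfa, Afg3l2 and Fastkd2 the groups did not overlap.

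Genes that use or feed the mitoribosome went both ways. Of 16 translation factors 2 rose and 2 fell: Tufm, the elongation factor that brings in charged tRNAs, was at 114 and 107 CPM in WT against 88.4 and 84.1 in Patz1 KO (-0.36 ± 0.09), and Lrpprc, which stabilises mitochondrial messenger RNAs, was at 124 and 133 against 106 and 97.3 (-0.34 ± 0.09). Of 22 genes for charging mitochondrial tRNAs 5 rose and 3 fell. Of 8 genes for transcription and replication of mitochondrial DNA none rose and 2 fell, namely Tfam (-0.27 ± 0.09), which packages that DNA, and the helicase gene Peo1 (-0.43 ± 0.12). The 8 gave a median of 0.01. Calls made up 25% of the translation factors, 36.4% of the tRNA charging genes and 25% of these 8, against 47.4% of all genes tested. Transcripts from mitochondrial DNA itself were not analysed here.

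The oxidative phosphorylation complexes receive the products of the mitoribosome. Of 80 tested genes for their nuclear-encoded subunits 12 rose and 17 fell, with a median log2 fold change of -0.01. Ndufb2 of complex I, on chromosome 6, was at 56.3 and 51.4 CPM in WT and at 90.6 and 113 in Patz1 KO (0.91 ± 0.11), and 3 of the 4 tested subunits on that chromosome rose. Ndufa12, also of complex I, was at 201 and 209 against 130 and 159 (-0.51 ± 0.10). Of 83 tested cytosolic ribosomal proteins 6 rose and 7 fell, and 65 had a log2 fold change below 0 (median -0.14). Calls made up 36.25% of the oxidative phosphorylation genes and 15.7% of the cytosolic ribosomal ones, against 47.4% of all genes tested.

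**Figure D5:**
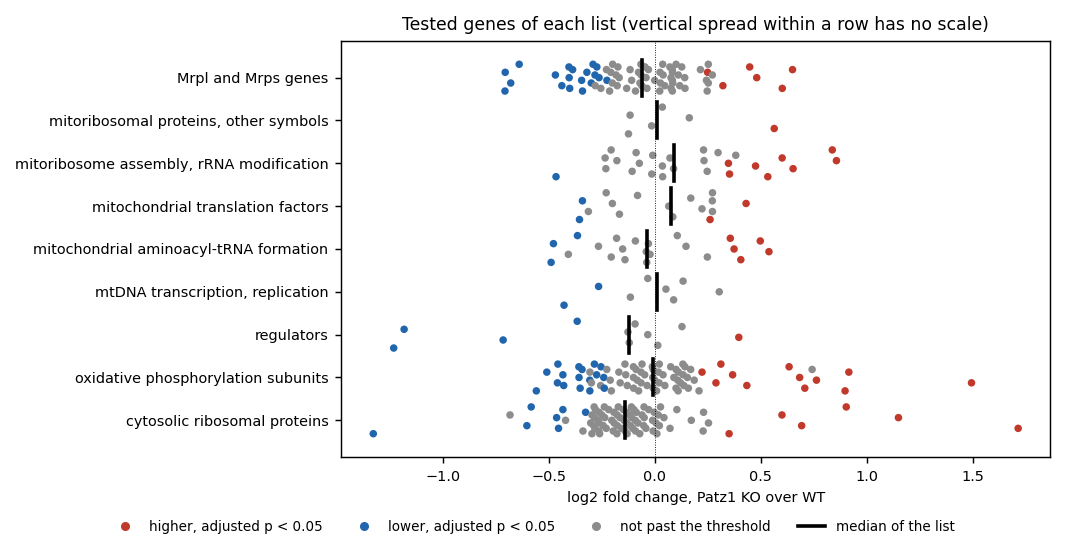
Log2 fold change (Patz1 KO over WT) of each tested gene in 9 lists, 1 row per list, coloured by the edgeR call, with a bar for the median. Medians lie between -0.14 (cytosolic ribosomal proteins) and 0.09 (assembly); the mitoribosomal genes span -0.71 to 0.65, and the regulators Gabpb2 and Myc lie below -1.

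Among 11 regulators known to act on genes for mitochondrial proteins, 4 fell and 1 rose. Calls thus made up 45.5% of that list, close to the 47.4% of all genes tested. GABP is an activator made of an alpha and a beta subunit, and genes of both fell: Gabpa was at 69.4 and 74.7 CPM in WT and at 45.3 and 42.3 in Patz1 KO (-0.72 ± 0.10, edgeR adjusted p = 8.36e-06), and Gabpb2 was at 64.6 and 69.2 against 29.6 and 27.2 (-1.23 ± 0.10, edgeR adjusted p = 2.16e-08). The other beta subunit gene, Gabpb1, was at 45.5 and 40.9 against 40.9 and 43.6 (-0.03 ± 0.10). Myc fell from a low level (9.27 and 11.6 CPM in WT, 4.87 and 4.29 in Patz1 KO, -1.18 ± 0.19). Nrf1 (-0.13 ± 0.09) and Yy1 (0.01 ± 0.09), activators of the same group of genes, did not pass.

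Letters that GABP, NRF1 and YY1 are known to recognise were searched, on both strands, in RefSeq promoters (GRCm38.p6, 250 bases before to 50 after the start), which were held for 67 of the 76 members. The GABP letters CCGGAAG were found in 35.8% of the members, 18.5% of 10486 tested genes and 9.93% of all 27025 genes with a promoter. The YY1 letters AAGATGGC were found in 17.9%, 4.92% and 3.19%, and the NRF1 letters GCGCATGCG in 10.4%, 4.03% and 1.95%. A looser form of the NRF1 letters, GCGCANGCG, was found in 22.4%, 14.6% and 7.03%. A run of guanines, GGGGNGGGG, was found in 31.3%, 39.0% and 24.6%. Of the 24 members with the GABP letters 6 fell and 2 rose (median log2 fold change 0.01), and of the 43 without them 9 fell and 2 rose (median -0.07). Of the 7 with the NRF1 letters 3 fell and none rose, and of the 60 without them 12 fell and 4 rose. For the looser form, 5 of 15 fell and none rose, and of the 52 without it 10 fell and 4 rose. Of the 12 with the YY1 letters 2 fell and none rose, and of the 55 without them 13 fell and 4 rose. Of the 21 with the run of guanines 6 fell and none rose, and of the 46 without it 9 fell and 4 rose. The 4 rises among the 67 were Mrpl53, Mrps33 and Mrps25, all on chromosome 6, and Mrps31 on chromosome 8. Mrpl19 and Mrps35, the largest rises, had no promoter in the set. These splits were not tested, and motif and chromosome cannot be told apart for the rises on chromosome 6. A match describes letters and not a bound site.

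These stretches were chosen to show members with the GABP, NRF1 and guanine letters and 1 with no motif. Each is the 150 bases before the RefSeq start, with motif letters in capitals. Mrpl22, which fell (-0.40), holds the GABP and the NRF1 letters, and its stretch is chr11:58171514-58171663 on the plus strand. Mrps36 (-0.47) holds the run of guanines, at chr13:100744660-100744809 on the minus strand. Mrpl34, a large subunit gene that did not pass (0.05), holds the GABP letters and the run of guanines, read on the other strand as CCCCNCCCC, at chr8:71464776-71464925 on the plus strand. Mrpl20, which fell (-0.23) and was the most abundant member in WT at 98.5 and 96.4 CPM, holds none of them at chr4:155802728-155802877 on the plus strand.
Mrpl22: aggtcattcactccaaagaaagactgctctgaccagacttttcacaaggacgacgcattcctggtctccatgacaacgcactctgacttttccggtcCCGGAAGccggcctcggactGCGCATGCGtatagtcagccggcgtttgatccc
Mrps36: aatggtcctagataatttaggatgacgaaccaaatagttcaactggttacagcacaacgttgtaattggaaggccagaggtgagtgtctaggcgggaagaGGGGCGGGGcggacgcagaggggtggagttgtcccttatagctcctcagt
Mrpl34: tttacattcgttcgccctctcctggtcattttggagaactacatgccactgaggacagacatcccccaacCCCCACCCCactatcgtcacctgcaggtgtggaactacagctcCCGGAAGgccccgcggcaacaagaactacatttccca
Mrpl20: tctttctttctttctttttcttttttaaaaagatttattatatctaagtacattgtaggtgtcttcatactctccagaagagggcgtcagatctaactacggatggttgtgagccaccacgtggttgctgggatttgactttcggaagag

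Many members share a start region with a gene on the other strand. A protein-coding neighbour whose start lay within 1000 bases was annotated (GENCODE M21) for 32 members, and 31 had a tested neighbour. In 3 of these both genes were called in the same direction, in 1 in opposite directions, in 9 the member alone, in 6 the neighbour alone and in 12 neither. Of all genes tested 47.4% were called, and pairs of this kind were not counted over all genes. Mrpl13 fell together with its neighbour Mtbp (-1.15 ± 0.12), Mrps18b with Ppp1r10 (-0.52 ± 0.10) and Mrpl40 with Hira (-0.25 ± 0.10). Mrpl14 fell while Tmem63b rose (0.74 ± 0.10). Mrpl18 fell while Tcp1, a chaperonin gene, did not pass (-0.18 ± 0.10), and Mrps18c fell while Helq did not pass (-0.29 ± 0.14). Mrpl46 and Mrps11 are each other's neighbours, and neither was called.

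Some of these pairs overlap. Exons of 32 members overlapped another annotated gene, 27 of them on the other strand and 8 on the same strand, and Mrpl13 with Mtbp, Mrpl14 with Tmem63b and Mrpl18 with Tcp1 were among the former. The strand setting used for counting is not given in the sources used here, so reads of such overlaps cannot be assigned to 1 gene. Among the strongest changes, Mrpl13 (chr15:55534094-55557748, minus strand), Mrpl18 (chr17:12911349-12916345, minus) and Mrps18b (chr17:35910379-35916389, minus) overlapped a gene on the other strand and Mrps18c (chr5:100798627-100804471, plus) one on the same strand. Mrps35 (chr6:147042764-147073991, plus) and Mrps33 (chr6:39801804-39810988, minus) overlapped none, and neither did Mrps31. Of the other higher members, Mrpl19 and Mrps25 overlapped a gene on the other strand, by 1962 and 4590 bases. Mrpl53 overlapped a gene on the same strand by 695 bases and one on the other strand by 15.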

How the data were processed

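RNA-seq was performed on 4 libraries (2 WT, 2 Patz1 -/- MNs). The authors deposited raw read counts per gene symbol, 1 file per library, aligned to mm10; the submitters' processing notes name TopHat2 2.1.1, Bowtie2 2.3.1 and featureCounts 1.6.2. The counting annotation and strand setting are not given in the sources used here. Groups were taken from the labels. Genes with at least 10 counts in at least 2 libraries were tested with edgeR 4.0.16 (glmQLFit, glmQLFTest; TMM; genotype only; R 4.3.3), with Benjamini-Hochberg adjustment over 14394 genes and a threshold of 0.05. Libraries held 14769104 and 15728158 (WT) and 23881522 and 17402342 (Patz1 KO) counts, and the common biological coefficient of variation was 7.71%. SE and 95% intervals come from the same fit. The script was tested on simulated data. The members, gene lists, motifs and rules for naming genes were chosen with earlier results of these data known. Every member could be named; members past the threshold, subunit sites, the Mrps18 genes and the highest and lowest levels were described in full. Positions, transcript lengths (transcripts paired with curated RefSeq entries) and overlaps were taken from GENCODE M21 (GRCm38), which matched 21737 of 23420 symbols (1 neighbouring gene was matched through its older symbol), and promoters from RefSeq. Alternatives were other scalings, filters, a replicate block, the Wald test of DESeq2 1.42 (the method of the study) and leaving out each library.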

Additional observations from a re-analysis of the deposited data

How the results depend on the processing

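Over 12 alternatives and 76 members, 770 values kept their direction and their side of the threshold, 33 (in 19 members, none beyond 0.23 in size) changed sign without a call in either analysis, 68 lost a call, 34 gained one and 7 reversed. Mrpl33 (-0.27) and Mrpl52 (-0.27) reversed without the second Patz1 KO library, and were called higher without the first (0.37 and 0.28), and Mrpl35 (-0.43), Mrpl51 (-0.44), Mrpl53 (-0.11), Mrps25 (-0.31) and Mrps33 (-0.076) did so once each chromosome was centred on its own median, an alternative chosen after seeing the data. Leaving out the members on chromosome 6, also chosen after seeing the data, left 1 member higher and 19 lower. DESeq2's Wald test called 5 higher and 6 lower, each among the edgeR calls. Leaving out 1 library at a time gave 4 to 16 members higher and 7 to 29 lower, and 2203 to 3808 of all genes lower; without the first Patz1 KO library the counts were 16 and 8, without the second 6 and 29, without the first WT library 5 and 7 and without the second 4 and 7. These fits assume that the lone library of a group varies like the other group. The replicate numbers are shared between genotypes, but deviations of same-numbered libraries did not move together (correlation 0.005 over genes), so they were not taken as pairs; with the replicate block 10 members were higher and 20 lower, including all of the 6 and 19. Other scalings and filters gave 5 to 8 higher and 17 to 20 lower. The median over the members stayed between -0.09 and -0.02 in every alternative. The cause of these changes was not tested. With 2 libraries per genotype, differences within the SEs of 0.09 to 0.15 could not be resolved.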
